A study of Homo sapiens with 8 samples.

Results

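The human miR-23/27/24 miRNAs are encoded by a pair of paralogous clusters, miR-23a/27a/24-2 on chromosome 19 (the a locus) and miR-23b/27b/24-1 on chromosome 9 (the b locus). The 10 mature miRNAs described here, of 1780 miRNA entries in the count table, were taken by name, and the prefix hsa- of the names (as in hsa-miR-23b-3p) is left out below. The a locus has 4 entries of its own (miR-23a-3p, miR-27a-3p, miR-27a-5p and miR-24-2-5p), the b locus likewise 4 (miR-23b-3p, miR-27b-3p, miR-27b-5p and miR-24-1-5p), miR-24-3p is made by both, and miR-3074-5p comes from the DNA strand opposite miR-24-1. All 10 had counts in each of the 8 libraries.

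Small RNA was sequenced from DLD1 and HT29, established human colorectal adenocarcinoma cell lines, after 6 days on a flat surface (2D) or as multicellular spheroids (MCS), in which cells grow as a free three-dimensional aggregate. Each cell line and culture had 2 libraries that the labels call biological replicates. No drug or genetic change was applied to any group, and each cell line stands for a single tumor. DLD1 cells were seeded at 35000 cells for 2D and 7000 per well for MCS, and HT29 cells at 100000 and 3500, so that culture and seeding number changed together. Kit version 3 was used for DLD1 and version 2 for HT29, and the paper names RPMI medium for DLD1 and DMEM for HT29. Kit, medium and cell line therefore cannot be told apart in any contrast between the lines. In bulk RNA of this kind, a miRNA made by fewer cells and a miRNA made at a lower level per cell cannot be told apart either.

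A miRNA hairpin is cut from a longer transcript by Drosha and then by Dicer, which leaves a short duplex of a 5p and a 3p arm. Usually a single arm of the duplex is loaded into an Argonaute protein, and that arm recognizes messenger RNAs mainly through its seed, the bases from 2 to 8. Hairpins of a polycistronic cluster lie on a shared primary transcript, but each mature product is also set by its own processing and turnover. The miR-23, miR-27 and miR-24 families are widely expressed in epithelial, endothelial and blood-forming cells and have been studied in angiogenesis, lipid metabolism and differentiation, and both clusters have been described in tumors, including those of the colon.

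The mature sequences below, from RefSeq, show how far the a and b products can be told apart by sequencing. Letters in capitals mark the seed.
hsa-miR-23a-3p: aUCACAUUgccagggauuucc
hsa-miR-23b-3p: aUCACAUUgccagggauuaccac
hsa-miR-27a-3p: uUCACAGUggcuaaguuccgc
hsa-miR-27b-3p: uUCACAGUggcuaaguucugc
hsa-miR-27a-5p: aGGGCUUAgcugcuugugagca
hsa-miR-27b-5p: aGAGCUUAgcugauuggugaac
hsa-miR-24-2-5p: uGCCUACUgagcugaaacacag
hsa-miR-24-1-5p: uGCCUACUgagcugauaucagu
hsa-miR-24-3p: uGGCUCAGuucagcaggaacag
hsa-miR-3074-5p: gUUCCUGCugaacugagccag

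Counted from the 5′ end, miR-23b-3p differed from miR-23a-3p within their shared length by U19A, and miR-27b-3p from miR-27a-3p by C19U, so that in each pair 20 of 21 bases were identical and the seed was shared. The passenger arms were easier to tell apart. MiR-27b-5p differed from miR-27a-5p at 8 of 22 bases, including the seed, and miR-24-1-5p from miR-24-2-5p at 6 of 22 bases, all after the first 15. How reads matching several mature miRNAs were assigned is not given in the sources used here, so that the counts of both 3p pairs may hold reads of each other, and the 5p arms are the entries that separate the loci best.

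In GRCh37 the a locus lies on the minus strand within an exon of the long non-coding RNA MIR23AHG, with the hairpins MIR23A at chr19:13947401-13947473, MIR27A at chr19:13947254-13947331 and MIR24-2 at chr19:13947101-13947173. The b locus lies on the plus strand of AOPEP, a gene of an aminopeptidase, with MIR23B at chr9:97847490-97847586 and MIR27B at chr9:97847727-97847823 in introns and MIR24-1 at chr9:97848303-97848370 in an exon of an AOPEP transcript. The clusters span 373 bases on chromosome 19 and 881 on chromosome 9. MIR3074 covers chr9:97848296-97848376 on the minus strand and so lies across MIR24-1. The 3 hairpins below are shown because miR-3074 is antisense to miR-24, with both arms in capitals.
MIR24-1: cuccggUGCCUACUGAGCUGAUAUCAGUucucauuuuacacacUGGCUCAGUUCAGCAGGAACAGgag
MIR24-2: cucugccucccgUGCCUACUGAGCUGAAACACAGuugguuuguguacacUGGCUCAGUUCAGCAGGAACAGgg
MIR3074: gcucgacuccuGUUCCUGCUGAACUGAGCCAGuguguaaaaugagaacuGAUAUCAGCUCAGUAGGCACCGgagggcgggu
MiR-3074-5p shared a run of 20 bases with the reverse complement of miR-24-3p, which both loci encode. Its partner miR-3074-3p shared 19 bases with the reverse complement of miR-24-1-5p and 15 with that of miR-24-2-5p.

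The libraries held from 10495634 to 26211524 miRNA counts. All 8 markers of colorectal epithelium fixed for this check, which were the miR-200 family with miR-141-3p and the miR-192, miR-194 and miR-215 products, reached 10 CPM (the counts of an entry scaled to a fixed library total) in every library. The HT29 libraries of replicate 1 stood apart in both cultures, since miR-10a-5p alone took 47.3% of the counts in 2D and 38.5% in MCS, against 10.6% and 6.57% in replicate 2, and from 15.2% to 18.99% in DLD1. Summed markers of blood cells (4 of 5 listed) ranged from 0.391 to 3.04 CPM in DLD1, with miR-144-3p and miR-150-5p at 0. In HT29 they were 8.29 and 13.1 CPM in 2D and 39.9 and 65.6 in MCS, mostly the lymphocyte miRNA miR-150-5p, while the red cell miRNA miR-451a stayed at or below 0.233 CPM. Endothelial and mesenchymal markers (3 of 3 listed) summed to between 81.5 and 97.3 CPM in DLD1 and between 2.38 and 16.6 in HT29. Those of muscle, liver and neuron (5 of 5 listed) summed to between 1.33 and 11.7 CPM in DLD1 and between 23.4 and 91.2 in HT29. The part of these markers in the results was not tested.

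The 10 miRNAs together made up 2.50% and 2.34% of the counts of the DLD1 2D libraries and 3.39% and 3.01% of those in MCS. In HT29 they made up 0.576% and 1.89% in 2D and 1.12% and 2.48% in MCS, with the lower value of each pair in the library rich in miR-10a-5p. In DLD1 cells in 2D, miR-24-3p was the most abundant, with a mean of 10448 CPM of the library total (n = 2), followed by miR-23a-3p with 5966 CPM and miR-27b-3p with 4530 CPM. No neighbours in that order overlapped between libraries, down to miR-24-1-5p with 4.13 CPM. In DLD1 MCS, miR-27b-3p came first with 11957 CPM, ahead of miR-24-3p with 6959 CPM and miR-23a-3p with 6895 CPM, whose libraries overlapped. MiR-27b-3p was therefore below miR-23a-3p in 2D and above it in MCS.

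In HT29 cells miR-27b-3p came first in both cultures, with a mean of 5552 CPM in 2D and 6520 CPM in MCS (n = 2 each). Across the 2 libraries of a culture, which differed in their share of miR-10a-5p, the ranges of nearly all neighbours in the order overlapped. The gap between miR-23b-3p (642.9 CPM in 2D) and miR-27a-5p (31.4 CPM in 2D) was the clear step between ranges. Within each HT29 library miR-27b-3p came first. It had 2797 CPM against 860 for the next in 2D replicate 1 and 8307 against 3051 in 2D replicate 2. In MCS it had 5033 against 2218 in replicate 1 and 8008 against 5056 in replicate 2. Between cell lines, the ranges over 4 libraries did not overlap for miR-23a-3p (from 5666 to 7849 CPM in DLD1 and from 434.4 to 2544 CPM in HT29), miR-24-3p, miR-27a-5p and miR-27b-5p, all of which were higher in DLD1. Those of the other 6 overlapped. Since the kits differed as well, no test was made between the cell lines for levels.

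**Figure D1:**
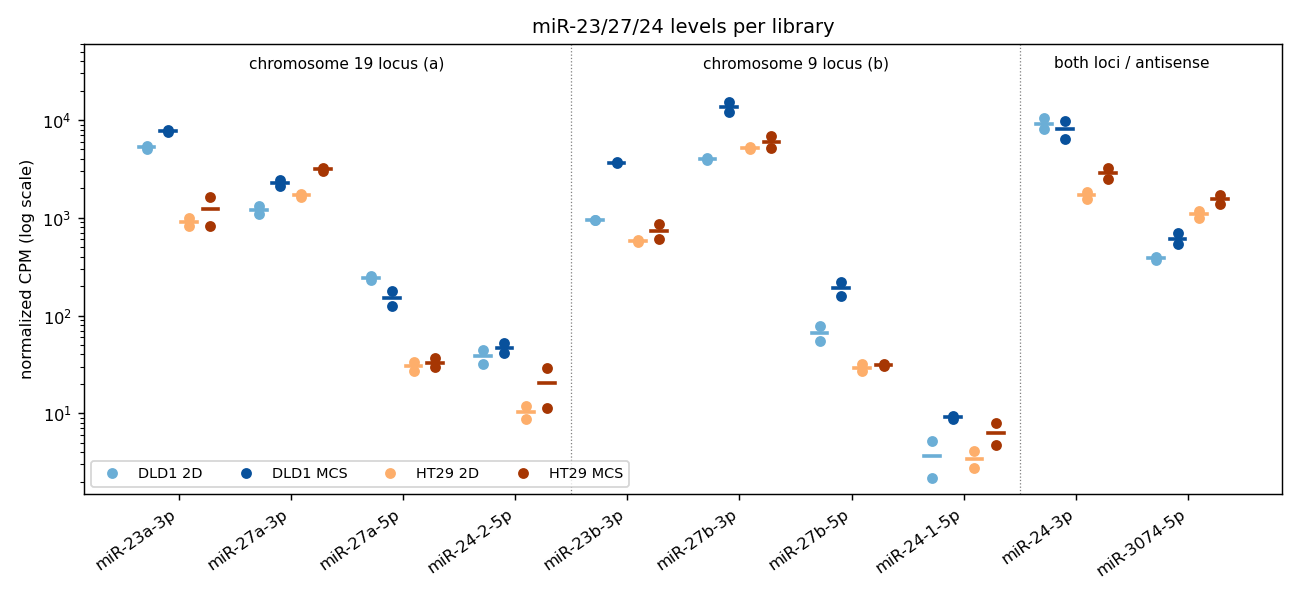
Level of each of the 10 miRNAs in the 8 libraries, as normalized CPM on a log axis, scaled within each cell line so that heights are comparable within a cell line only. Points are libraries and bars the means of 2. In DLD1 the MCS points of the chromosome 9 products miR-23b-3p, miR-27b-3p and miR-27b-5p lie clear above their 2D points, whereas those of miR-27a-5p lie below.

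To ask whether the clusters responded to spheroid growth, MCS was compared with 2D within each cell line. Counts were scaled by upper quartile factors (normalized CPM below) and tested with edgeR's quasi-likelihood test over all miRNAs whose mean reached 10 CPM in the cell line. A miRNA was called up- or down-regulated where the change reached 1.5-fold and the adjusted p (Benjamini-Hochberg) was under 0.05. In DLD1 cells the b locus rose in MCS, with fold changes between 2.82 and 3.88 for its 3 tested products, while the products of the a locus differed less and in different directions. Of the 10 miRNAs, 9 passed the filter, of which 5 were called higher and 1 lower. Among all 346 miRNAs tested 41.6% were called, 30.1% higher and 11.6% lower. The median log2 fold change was 0.67 over the 9 and 0.23 over all 346.

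MiR-23b-3p, the guide strand of MIR23B, measured 940.8 and 953.4 normalized CPM in the DLD1 2D libraries and 3700 and 3645 in MCS. Both MCS libraries were far above both 2D libraries. The small spread within MCS holds only after scaling. As CPM of the library total, the MCS libraries measured 3832 and 2719, against 1043 and 1113 in 2D. The log2 fold change was 1.96 (SE 0.24, adjusted p = 6.4e-14). The p-values of this fit draw on the spread of all miRNAs tested. Over the alternative edgeR and DESeq2 fits the adjusted p ranged from 7.8e-27 to 0.0145. MiR-27b-3p measured 4074 and 3891 in 2D and 12117 and 15240 in MCS, a log2 fold change of 1.78 (SE 0.27, adjusted p = 8.32e-10). The alternative fits gave adjusted p from 1.97e-24 to 0.0192.

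The passenger arm miR-27b-5p, whose sequence is distinct from that of miR-27a-5p, moved the same way. It measured 54.4 and 77.8 normalized CPM in 2D and 160 and 218 in MCS, with a log2 fold change of 1.496 (SE 0.26, adjusted p = 2.14e-07). The alternative edgeR and DESeq2 fits gave adjusted p from 5.2e-08 to 0.0378. MiR-24-1-5p, the arm that marks the third hairpin of the b locus, was rare, with 91 and 64 counts in 2D and 162 and 144 in MCS, or 5.19 and 2.15 against 8.66 and 9.44 normalized CPM. Its MCS libraries lay above its 2D libraries, but with a mean of 6.07 CPM it was below the filter. In the fit without a filter its log2 fold change was 1.44 (SE 0.45, adjusted p = 0.0536), which did not pass the test.

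The a locus gave no common direction in DLD1. MiR-23a-3p measured 5108 and 5368 normalized CPM in 2D and 7579 and 7967 in MCS. Its cultures did not overlap, but with a log2 fold change of 0.57 (SE 0.25, adjusted p = 0.0568) it was not called. MiR-27a-3p measured 1322 and 1089 in 2D and 2103 and 2446 in MCS and was called higher, by 0.92 on the log2 scale (SE 0.23, adjusted p = 0.000402). The call was lost without 2D replicate 2 (adjusted p = 0.150), and with library totals the log2 fold change of 0.55 was under the fold threshold.

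MiR-27a-5p, cut from the same hairpin as miR-27a-3p, went the other way. It measured 229 and 253 normalized CPM in 2D and 125 and 177 in MCS, with both MCS libraries below both 2D libraries, and was called lower with a log2 fold change of -0.68 (SE 0.25, adjusted p = 0.0172). That call was lost without 2D replicate 2 (adjusted p = 0.0627), without MCS replicate 1 (adjusted p = 0.0807) and in the fit with no filter (adjusted p = 0.104), while the direction stayed. MiR-24-2-5p, the arm that marks the third a hairpin, measured 44.6 and 31.8 in 2D and 41.4 and 52.1 in MCS. Its cultures overlapped (log2 fold change 0.31, SE 0.30, adjusted p = 0.417), and with library totals in place of upper quartile factors its sign turned (-0.07).

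MiR-24-3p, which has 2 source hairpins, did not follow the b locus. It measured 10390 and 8030 normalized CPM in 2D and 6328 and 9875 in MCS, so that the cultures overlapped (log2 fold change -0.18, SE 0.26, adjusted p = 0.567). With library totals alone it was called lower (log2 fold change -0.59, adjusted p = 0.00397), so that its call rests on the scaling. MiR-3074-5p measured 400.4 and 372 in 2D and 534 and 692 in MCS and was called higher by 0.67 on the log2 scale (SE 0.23, adjusted p = 0.011), but its fold change fell below 1.5 with TMM factors, with the size factors of DESeq2 and with library totals. Its call was also lost without 2D replicate 1 (adjusted p = 0.0925), 2D replicate 2 (0.247) or MCS replicate 2 (0.122), and in the fit with no filter (0.0954).

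Across the 10 miRNAs in DLD1, both MCS libraries lay above both 2D libraries for 7 and below for 1, with overlap for 2, where 70.8% of all tested miRNAs had cultures that did not overlap, 45.4% with MCS above and 25.4% with MCS below. The scaling moved the median log2 fold change of all miRNAs from 0.23 with upper quartile factors to 0.03 with TMM and -0.13 with library totals. The share of all calls that were higher moved with it, from 104 of 144 to 76 of 139 and 61 of 150. Relative to the median of all miRNAs, miR-23b-3p rose by 1.73, miR-27b-3p by 1.55 and miR-27b-5p by 1.27 on the log2 scale, and these 3 were called under every scaling and in every other setting tried. In a single fit over all 8 libraries, which shares the wider spread of HT29, only these 3 of the 9 were called. The share of all miRNAs called in that fit is not given here.

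A ratio of a b product to its a counterpart within a library does not depend on how libraries are scaled. Such ratios were compared between cultures with limma, over all pairs of entries with the same miRNA number and arm and a mean of at least 1 CPM. In DLD1, 3 of the 4 ratios of b over a were called, each as a rise. Among all 231 pairs tested 23.8% were called, 8.66% with a ratio that rose, where for other families the entry later in name order was divided by the earlier.

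The ratio of miR-23b-3p to miR-23a-3p was 0.184 and 0.178 in the DLD1 2D libraries and 0.488 and 0.458 in MCS. It rose by 1.39 on the log2 scale (95% interval 1.01 to 1.76, adjusted p = 0.000184). The b locus thus supplied 15.6% and 15.1% of the miR-23 3p counts in 2D and 32.8% and 31.4% in MCS. The 95% Wilson interval of the last of these was 31.2 to 31.6%, which covers counting error only. Summed over both loci, miR-23 3p rose from 6185 ± 192 to 11446 ± 236 normalized CPM (SD, n = 2).

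The ratio of miR-27b-3p to miR-27a-3p was 3.08 and 3.57 in 2D and 5.76 and 6.23 in MCS. It rose by 0.85 on the log2 scale (95% interval 0.46 to 1.24, adjusted p = 0.00444), and the call was lost without 2D replicate 1 (adjusted p = 0.0653) and in the fit without a trend (adjusted p = 0.0929). MiR-27b-3p was the larger product in all of these libraries, with 75.5% and 78.1% of the miR-27 3p counts in 2D and 85.2% and 86.2% in MCS. Summed, both 3p strands went from 5188 ± 294 to 15953 ± 2452 normalized CPM (SD, n = 2).

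Among the 4 ratios, that of the miR-27 5p arms shifted most. The ratio of miR-27b-5p to miR-27a-5p was 0.238 and 0.308 in 2D and 1.28 and 1.23 in MCS, a rise of 2.21 on the log2 scale (95% interval 1.70 to 2.72, adjusted p = 7.23e-05). The larger product of the pair changed, from miR-27a-5p in 2D to miR-27b-5p in MCS. Their sum stayed at 307 ± 33.5 and 340.1 ± 78.3 normalized CPM (SD, n = 2), a difference within the spread.

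The ratio of miR-24-1-5p to miR-24-2-5p was 0.116 and 0.0677 in 2D and 0.209 and 0.181 in MCS. It was higher by 1.13 on the log2 scale (95% interval 0.29 to 1.97) but missed the threshold with an adjusted p of 0.0511, which ranged from 0.0299 to 0.105 over the other settings. The arms that are not among the 10, miR-23b-5p and miR-23a-5p, moved likewise on low counts. Their ratio was 0.966 and 1.30 in 2D and 8.18 and 5.19 in MCS (log2 difference 2.53, SE 0.40, adjusted p = 0.000973), from between 86 and 327 counts of miR-23b-5p and between 40 and 216 counts of miR-23a-5p.

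**Figure D2:**
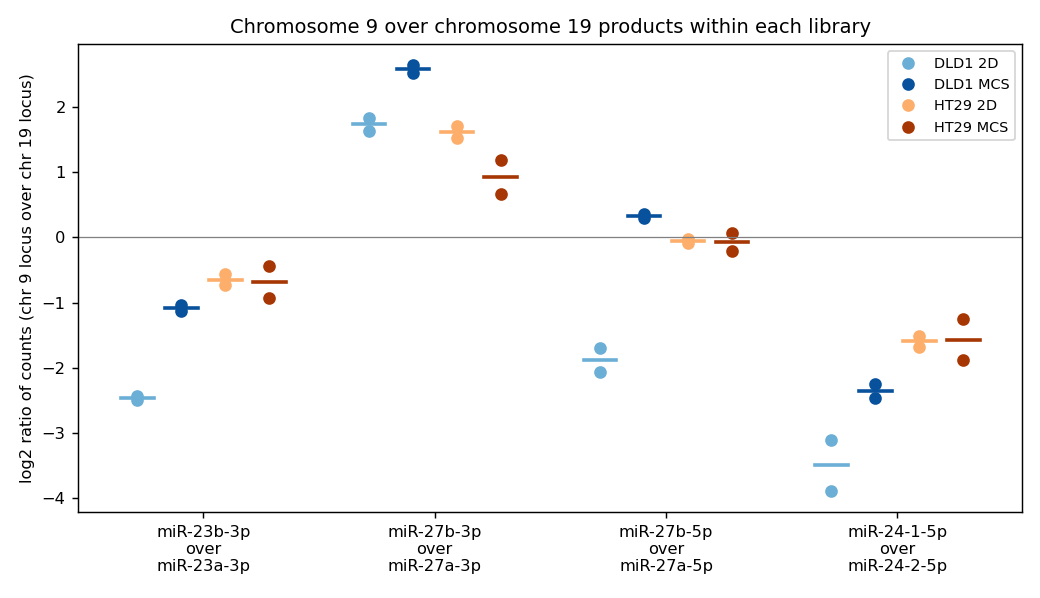
Log2 ratio of the chromosome 9 product to its chromosome 19 counterpart within each library, for 4 pairs, with points for libraries and bars for means of 2. In DLD1 all 4 ratios are higher in MCS than in 2D, while in HT29 the MCS points of miR-23, miR-27-5p and miR-24 spread around the 2D points and those of miR-27-3p lie below them.

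The arms of MIR27A also shifted against each other. Each 5p arm was divided by the 3p arm of the same name and compared with limma over all miRNAs with both arms at a mean of at least 1 CPM. The ratio of miR-27a-5p to miR-27a-3p was 0.173 and 0.232 in the DLD1 2D libraries and 0.0594 and 0.0725 in MCS, a log2 difference of -1.61 (SE 0.27, adjusted p = 3.71e-07), where 7.36% of 163 arm pairs were called, 3.07% as lower and 4.29% as higher. The spread in this fit was drawn almost wholly from the trend over all arm pairs, and without the trend the adjusted p was 0.110.

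For MIR27B the arm ratio was 0.0134 and 0.0200 in 2D and 0.0132 and 0.0143 in MCS. Its cultures overlapped, and the log2 difference of -0.25 (95% interval -0.82 to 0.32, adjusted p = 0.689) did not pass the test. The arm ratio of MIR23A was lower in MCS (log2 difference -1.72, SE 0.56, adjusted p = 0.0322) on the low counts of miR-23a-5p given above. That of MIR23B was 0.00521 and 0.00987 in 2D and 0.00472 and 0.00494 in MCS. It was thus also lower in MCS without overlap, but did not pass the test (log2 difference -0.57, SE 0.42, adjusted p = 0.440). The ratio was called lower for both a hairpins tested and for neither b hairpin. Whether the a and b hairpins differ in this was not tested.

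In HT29 cells none of the 9 miRNAs that passed the filter was called by edgeR, and none reached an unadjusted p under 0.05. Over all 301 miRNAs tested edgeR called 0 (0%), with 13 at an unadjusted p under 0.05, while DESeq2 called 11 and edgeR's exact test 5, with 0 of the 9 among either. The spread between replicates was far larger than in DLD1, with a biological coefficient of variation of 0.521 against 0.193. All 9 log2 fold changes were above 0, with a median of 0.43 beside 0.03 over all 301.

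MiR-27a-3p had the smallest p of the 9 in HT29. It measured 1646 and 1734 normalized CPM in 2D and 2992 and 3244 in MCS. Both MCS libraries lay above both 2D libraries, with a log2 fold change of 0.88 (SE 0.39, unadjusted p = 0.0728, adjusted p = 0.969). The adjusted p ranged from 0.0537 to 0.999 over the alternatives.

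MiR-24-3p measured 1556 and 1838 normalized CPM in HT29 2D and 2472 and 3250 in MCS (log2 fold change 0.75, SE 0.41, adjusted p = 0.969). MiR-3074-5p measured 1001 and 1165 in 2D and 1398 and 1722 in MCS (log2 fold change 0.53, SE 0.39, adjusted p = 0.978). For both, the cultures did not overlap although neither passed the test. Over the 10 miRNAs, both MCS libraries lay above both 2D libraries for 5 and overlapped with 2D for 5, where 28.6% of all tested had cultures that did not overlap, 17.9% with MCS above and 10.6% with MCS below.

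The 3 b locus products that rose in DLD1 gave smaller values in HT29, none of which passed the test. MiR-23b-3p measured 562 and 598 normalized CPM in 2D and 609 and 858 in MCS (log2 fold change 0.34, SE 0.40). MiR-27b-3p measured 5355 and 5004 in 2D and 6788 and 5148 in MCS (log2 fold change 0.20, SE 0.42), and its sign turned without MCS replicate 1 (-0.04). MiR-27b-5p measured 31.6 and 26.7 in 2D and 31.6 and 30.7 in MCS (log2 fold change 0.10, SE 0.42), with overlap between the cultures.

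MiR-24-1-5p, under the filter in HT29 too, measured 2.74 and 4.14 normalized CPM in 2D and 4.77 and 7.93 in MCS, from 15, 180, 38 and 212 counts. In the fit without a filter its log2 fold change was 0.88 (SE 0.63, adjusted p = 0.905). Of the a locus, miR-23a-3p measured 832 and 991 in 2D and 828 and 1636 in MCS (log2 fold change 0.43, SE 0.49). Its MCS libraries were the lowest and the highest of the 4. MiR-24-2-5p measured 8.76 and 11.8 in 2D and 11.4 and 29.3 in MCS (log2 fold change 0.98, SE 0.59). MiR-27a-5p measured 33.6 and 27.2 in 2D and 36.4 and 29.5 in MCS (log2 fold change 0.12, SE 0.44), and these a products all overlapped between the cultures.

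The b over a ratios of HT29 showed no called change, with 0 of 292 pairs called (0%) and 2 at an unadjusted p under 0.05. The ratio of miR-23b-3p to miR-23a-3p was 0.676 and 0.603 in 2D and 0.736 and 0.524 in MCS (log2 difference -0.04, 95% interval -1.22 to 1.14). That of miR-27b-5p to miR-27a-5p was 0.940 and 0.982 in 2D and 0.869 and 1.04 in MCS (log2 difference -0.01, 95% interval -1.42 to 1.39). The 5p ratios of HT29 thus lay near equality in both cultures.

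The ratio of miR-27b-3p to miR-27a-3p went down in HT29, from 3.25 and 2.89 in 2D to 2.27 and 1.59 in MCS, against its rise in DLD1. Both MCS libraries lay below both 2D libraries, with a log2 difference of -0.69 (95% interval -1.78 to 0.39, adjusted p = 0.986) that was not called. With a term for the replicate number in the limma fit it was called (adjusted p = 0.0048). The labels give these numbers no shared batch, and the share of all pairs called in that fit is not given here. For miR-24-1-5p to miR-24-2-5p the ratio was 0.312 and 0.350 in 2D and 0.418 and 0.271 in MCS (log2 difference 0.01, 95% interval -1.59 to 1.62). Of the 4 intervals, that of miR-24 holds the DLD1 estimate of its pair and the other 3 end below theirs. This leaves out the error of the DLD1 estimates and is no test of a difference, which is given below.

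The arm ratio of MIR27A was lower in HT29 MCS as well, with 0.0204 and 0.0157 in 2D and 0.0122 and 0.00909 in MCS. Its cultures did not overlap, but the log2 difference of -0.77 (95% interval -2.52 to 0.98, adjusted p = 0.993) was not called, as was none (0%) of 143 arm pairs, with 2 at an unadjusted p under 0.05. The arm ratio was lower in every HT29 library than in any DLD1 library, where kit and cell line cannot be told apart. For MIR27B the HT29 arm ratio ranged from 0.00466 to 0.00597 (log2 difference -0.09, adjusted p = 0.993).

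To test whether the cell lines responded differently, the interaction of cell line and culture was fitted over all 8 libraries. For single miRNAs edgeR called 0 of 250 (0%), with 25 at an unadjusted p under 0.05, and DESeq2 called 19. The largest differences among the 9 belonged to the b locus, each smaller in HT29. The response of miR-23b-3p was lower in HT29 by -1.65 on the log2 scale (SE 0.37, unadjusted p = 0.00312, adjusted p = 0.191). The values were -1.59 for miR-27b-3p (SE 0.39, adjusted p = 0.191) and -1.42 for miR-27b-5p (SE 0.47, adjusted p = 0.324). DESeq2 called all 3 of these and none of the other 6.

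For the a locus and the shared entries the difference of responses was smaller and not called. It was 0.92 for miR-24-3p (SE 0.43, adjusted p = 0.610), 0.78 for miR-27a-5p (SE 0.45) and 0.66 for miR-24-2-5p (SE 0.65). The difference was near 0 for miR-27a-3p (-0.06, SE 0.33), miR-23a-3p (-0.17, SE 0.49) and miR-3074-5p (-0.16, SE 0.35), and the signs of these last 3 turned with library totals. The median difference over all 250 miRNAs was -0.23.

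Among the b over a ratios, that of miR-27b-5p to miR-27a-5p differed between the cell lines by -2.22 on the log2 scale (95% interval -3.25 to -1.20, adjusted p = 0.0362), where 4.02% of 199 pairs were called, 3.52% as lower and 0.503% as higher in HT29. This call was lost with any single library left out, with adjusted p from 0.0585 to 0.257. The differences were -1.54 for miR-27b-3p to miR-27a-3p (95% interval -2.53 to -0.56, adjusted p = 0.148), -1.43 for miR-23b-3p to miR-23a-3p (-2.37 to -0.48, adjusted p = 0.153) and -1.11 for miR-24-1-5p to miR-24-2-5p (-2.68 to 0.46, adjusted p = 0.499). Of the 4 differences 1 passed the test. With both entries required to reach 5 or 10 CPM, those of miR-27b-3p to miR-27a-3p and of miR-23b-3p to miR-23a-3p were called as well. The share of all pairs called at these thresholds is not given here. No difference of arm ratios was called over 124 arm pairs (0%), with 1 at an unadjusted p under 0.05.

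**Figure D3:**
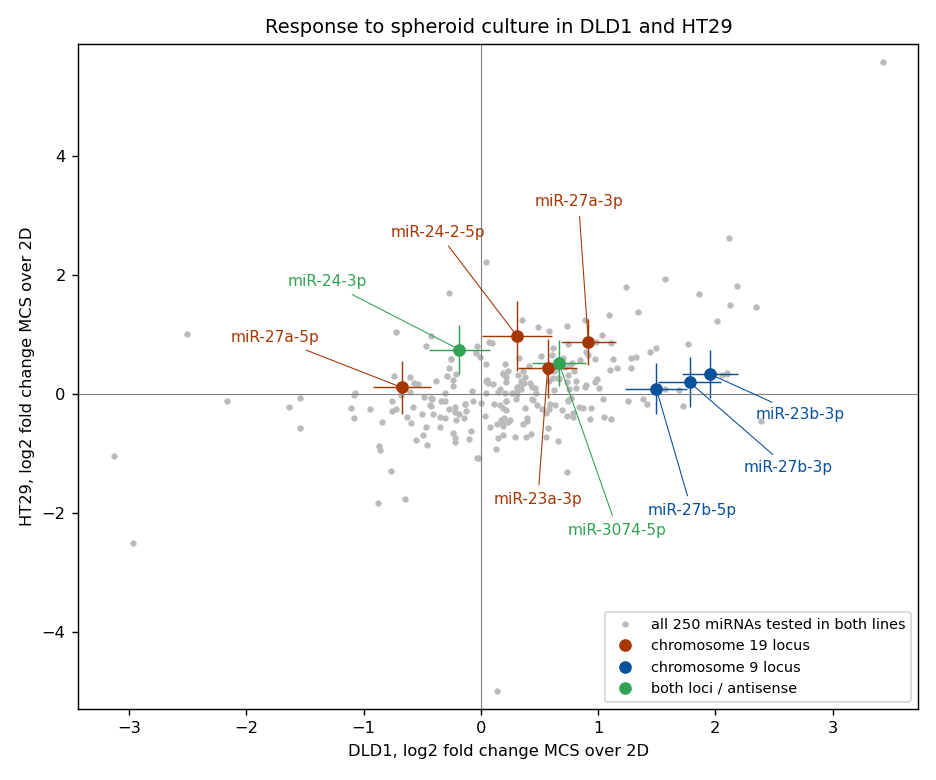
Log2 fold change of MCS over 2D in DLD1 (horizontal axis) and HT29 (vertical axis) for the 250 miRNAs tested in both cell lines, in grey, with 9 of the 10 miRNAs in colour and bars of 1 SE from the edgeR fits. MiR-23b-3p, miR-27b-3p and miR-27b-5p lie between 1.496 and 1.96 in DLD1 and between 0.10 and 0.34 in HT29.

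MiR-3074-5p and miR-24-3p are annotated as antisense products of the same stretch of chromosome 9. Their ratio was 0.0385 and 0.0463 in DLD1 2D and 0.0844 and 0.0700 in MCS, a difference of 0.86 on the log2 scale. In HT29 it was 0.643 and 0.634 in 2D and 0.566 and 0.530 in MCS, a difference of -0.22. In both cell lines the cultures did not overlap, in opposite directions. The exact two-sided permutation test gave p = 0.333 in each cell line, the smallest that 2 libraries against 2 allow.

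Over the 8 libraries the ratio of miR-3074-5p to miR-24-3p varied 16.7-fold, with all HT29 libraries above all DLD1 libraries. Kit and cell line cannot be told apart in this contrast. The other arm of the miR-3074 hairpin behaved otherwise. MiR-3074-3p lies opposite miR-24-1-5p on chromosome 9, but its ratio to miR-24-1-5p varied 10.3-fold, from 2.21 to 22.7. Its ratio to miR-24-2-5p, which comes from chromosome 19 and of whose reverse complement it shares 15 bases, varied 1.70-fold, from 0.923 to 1.57.

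In counts, miR-3074-3p had 1229 and 1454 in DLD1 2D, 956 and 974 in DLD1 MCS, 61 and 620 in HT29 2D and 84 and 905 in HT29 MCS. MiR-24-2-5p had 782 and 946, 774 and 795, 48 and 515, and 91 and 783 in the same order. Raw counts follow depth, which the ratio above does not. Like miR-24-2-5p, miR-3074-3p was not called in DLD1 (log2 fold change -0.04, adjusted p = 0.915), nor was the arm ratio of miR-3074 (log2 difference 0.69, adjusted p = 0.188). Whether reads of miR-24 were counted under miR-3074 was not tested, and the sources used here do not say if the strand was used in counting.

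**Figure D4:**
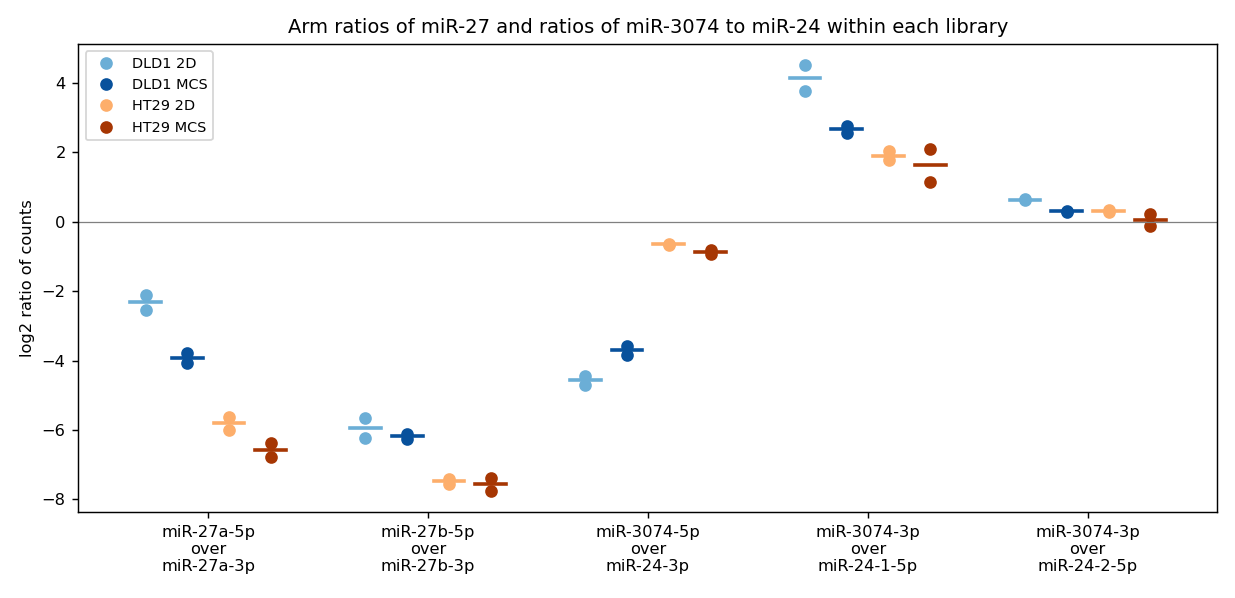
Log2 ratio of counts within each library for the arms of miR-27a and miR-27b and for miR-3074 against miR-24, with points for libraries and bars for means of 2. The miR-27a arm ratio is lower in MCS than in 2D in both cell lines. MiR-3074-5p to miR-24-3p separates the cell lines, which also differ in kit version. MiR-3074-3p to miR-24-2-5p stays between 0.923 and 1.57 in linear terms.

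Products of a shared primary transcript can be compared with each other as well. The ratio of miR-27b-3p to miR-23b-3p ranged from 3.27 to 4.33 in DLD1 and from 6.00 to 11.1 in HT29. In both cell lines its cultures overlapped. Its span within DLD1 was 1.32-fold, beside 1.51-fold for the a locus ratio that follows, and the difference between the loci was not tested. For the a locus, miR-27a-3p to miR-23a-3p ranged from 0.203 to 0.307 in DLD1 and from 1.75 to 3.61 in HT29. The lines did not overlap, and the larger product of the pair was exchanged. For both loci, kit and cell line cannot be told apart in the contrast between the lines. The ratio of miR-24-3p to miR-24-2-5p ranged from 110.9 to 252 over the 8 libraries, a 2.28-fold span. That of miR-24-3p to miR-24-1-5p ranged from 409.8 to 3732, a 9.11-fold span. Within DLD1 the spans were 1.65-fold and 5.11-fold in the same order. Within HT29 they were 1.95-fold and 1.39-fold, so that the wider span of the miR-24-1-5p ratio did not hold there. MiR-24-1-5p had only 15 to 212 counts a library.

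For each leading strand, the miRNAs with the most similar profile were found by the root mean square difference of log2 normalized CPM over the 8 libraries, after centring each cell line, among 249 others. For miR-27b-3p the nearest entry was its own passenger arm miR-27b-5p (0.20), with miR-23b-3p in rank 5 (0.26). For miR-23b-3p, miR-27b-3p came in rank 2 (0.26) and miR-27b-5p in rank 5 (0.29), behind miR-203b-5p (0.15) and around the epithelial miR-200a-3p (0.28) and miR-101-3p (0.28). MiR-24-1-5p, under the filter, was not among those compared. Outside the locus miR-27b-3p was nearest to miR-664a-3p (0.21), miR-203a-3p (0.21) and miR-181a-2-3p (0.25).

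The a locus strands had many other miRNAs between them in rank, but ranks cannot be compared between the loci. The median difference from all 249 others was 0.535 for miR-23a-3p and 0.601 for miR-27a-3p. It was wider for miR-23b-3p (0.778) and miR-27b-3p (0.723). A difference of 0.26 thus gave rank 22 for miR-24-2-5p from miR-23a-3p and rank 5 for miR-23b-3p from miR-27b-3p. MiR-23a-3p had miR-31-5p (0.12), miR-1260b (0.14) and miR-574-3p (0.14) as its nearest, with miR-24-2-5p in rank 22 (0.26) and miR-27a-3p in rank 46 (0.33). MiR-27a-3p was nearest to miR-181b-5p (0.16), miR-3074-5p (0.18), miR-335-5p (0.18) and miR-200a-3p (0.18). MiR-24-3p was nearest to miR-425-5p, miR-660-5p (0.15 each) and miR-576-5p (0.18). Of the locus-specific arms, miR-24-2-5p stood in rank 16 for miR-24-3p (0.31), while the b locus strands miR-23b-3p and miR-27b-3p stood in ranks 196 and 188. These are descriptions over 8 libraries that share depth and scaling, with no test.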

How the data were processed

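Small RNA libraries of DLD1 and HT29 cells in 2D and MCS were grouped by the submitters' labels. The authors clipped adapters with the random end bases, discarded reads that were short or of low quality, aligned what remained to the genome, then to mature miRNAs of miRBase, and deposited raw counts per mature miRNA, not normalized or pooled. The submitters' processing notes name CASAVA 1.8.3, cutadapt 1.11, Bowtie2 2.1.0, edgeR 3.4.2 and hg19. The series-wide table and the single-library tables held the same number for all 12572 values compared. The 15 entries that name no miRNA (0.00988% of HT29 2D replicate 2, 0 elsewhere) were left out.

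Counts were tested with edgeR 4.0.16 (quasi-likelihood, upper quartile factors over the miRNAs counted in that cell line, a mean of at least 10 CPM, no term for the replicate number) and ratios with limma 3.58.1 (eBayes with trend, 0.5 added to each count, both entries at a mean of at least 1 CPM), in R 4.3.3. For normalized CPM, the library total was multiplied by its factor. A call needed a change of at least 1.5-fold and a Benjamini-Hochberg adjusted p under 0.05, always over all features tested. P-values rest on the spread between 2 libraries a group, which edgeR and limma moderate over all features tested. Very small values therefore depend on the fit. Both steps were also run on simulated counts with known changes. These counts held no effect of the replicate number, so that the runs are no check of the calls made here. The miRNAs named are the 10 members, the other arms of their hairpins and, for 5 leading strands, the 3 most similar miRNAs. The members, lists and tests were chosen with earlier results of these data known. Hairpin and mature sequences came from RefSeq (GRCh38.p14 table, all 13 entries found), and positions from exact matches of the hairpins to GRCh37 with genes of GENCODE release 44 lifted to it. Alternatives were TMM, DESeq2 size factors, library totals, DESeq2 1.42.0, edgeR's exact test, other filters and added counts, no trend, no fold threshold, a replicate block, 1 fit of all 8 libraries, and each library left out. Python 3.11.15 with pandas 2.3.3, scipy 1.17.1 and matplotlib 3.10.9 served for the rest.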

Additional observations from a re-analysis of the deposited data

Results flagged for a closer look

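The response of the miR-27b-5p to miR-27a-5p ratio differed between the cell lines, by -2.22 on the log2 scale (HT29 minus DLD1, limma interaction over 8 libraries, adjusted p = 0.0362). The ratio rose 2.21 on the log2 scale in DLD1 and moved by -0.01 in HT29. The call did not hold with any single library left out, with adjusted p from 0.0585 to 0.257. Kit version and cell line cannot be told apart.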

How the results depend on the processing

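In DLD1, 6 of the 9 tested miRNAs were called by edgeR, 3 in the fit of all 8 libraries and 3 to 6 with a library left out (3 without 2D replicate 2). The called DLD1 arm ratio of miR-27a was the only call of its kind among the 2 miR-27 hairpins, and 0 remained without the trend. HT29 had 0 called pairs, and 1 with the replicate block, miR-27b-3p to miR-27a-3p (-0.69, adjusted p = 0.0048, limma). For the difference of responses, 0 miRNAs were called, but 3 with DESeq2 and 3 with the replicate block. Its 1 called pair became 3 with a mean of at least 10 CPM, 3 with at least 5 CPM, 3 with the replicate block, 0 without the trend and 0 to 0 with a library left out. For the replicate block, the other CPM thresholds and the fit of all 8 libraries, the share of all features called is not given here. Their counts are therefore no result about the members alone. Labels give the replicate numbers no shared batch. Same-numbered libraries deviated together (r = 0.338 in DLD1 and 0.788 in HT29 across miRNAs), and the block moved no other count. Its called differences of responses were miR-23b-3p and miR-27b-3p (adjusted p = 0.00467 each, edgeR), miR-27b-5p (0.0159), and the ratios of miR-27b-3p to miR-27a-3p (1.91e-05, limma), miR-23b-3p to miR-23a-3p (0.000109) and miR-27b-5p to miR-27a-5p (0.000194).

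Signs turned with library totals for miR-24-2-5p in DLD1 (-0.067) and, in the difference of responses, for miR-27a-3p (0.41), miR-23a-3p (0.39) and miR-3074-5p (0.31). That of miR-27a-3p also turned with DESeq2 size factors (0.055) and DESeq2 (0.0547), and miR-24-1-5p to miR-24-2-5p in HT29 with 5 added (-0.061). With each library left out, log2 values crossed 0 as follows. In DLD1, miR-24-2-5p ranged from -0.058 to 0.42 and the miR-27b arm ratio from -0.54 to 0.039. In HT29, miR-23a-3p ranged from -0.16 to 0.82, miR-27b-3p from -0.035 to 0.37, miR-27a-5p from -0.11 to 0.27 and miR-27b-5p from -0.10 to 0.21. The HT29 ratios ranged from -0.28 to 0.21 (miR-23b-3p to miR-23a-3p), -0.30 to 0.33 (miR-24), -0.15 to 0.12 (miR-27 5p) and -0.27 to 0.087 (miR-27b arms). Differences of responses ranged from -0.13 to 0.081 (miR-27a-3p), -0.70 to 0.30 (miR-23a-3p), -0.28 to 0.029 (miR-3074-5p), -0.15 to 1.22 (miR-24-2-5p) and -0.13 to 0.45 (miR-27b arms). The cause of these changes was not tested.

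Depth limits miR-24-1-5p most, with 15 to 212 counts a library. With 2 libraries a group, the HT29 spread sets what can be called there.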
